A study of Mus musculus with 8 samples.

Results

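The level of 10 genes that mark cerebellar Purkinje cells was compared between mice with and without *Atm*. The genes were *Calb1*, *Pcp2*, *Pcp4*, *Pvalb*, *Car8*, *Ppp1r17*, *Rgs8*, *Aldoc*, *Plcb3* and *Slc1a6*. They were listed by symbol, and all 10 were found among the 56691 genes of the count table and passed the filter on low counts that left 22423 genes for testing. RNA-seq had been run on frozen cerebellar tissue of mice aged 6 months, 1 library per mouse. Of the 8 libraries, 4 came from mice labelled ATM +/+ (*Atm*-WT, mice 2M, 7M, 13M and 32M) and 4 from mice labelled ATM -/- (*Atm*-KO, mice 1M, 7F, 11M and 12M). The knockout line was B6;129S4-Atmtm1Bal/J, the allele is a germline knockout that is not restricted to a cell type, the controls were littermates from heterozygous crosses, and no treatment is given for these mice in the labels. The 1 library labelled F, 7F, was an *Atm*-KO, and all other names end in M. If these letters stand for sex, it was not balanced between genotypes.

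Purkinje cells are the large GABAergic neurons that carry the whole output of the cerebellar cortex. They are known for very high levels of calcium-binding proteins and for strong metabotropic glutamate signalling, and their loss is a hallmark of ataxia-telangiectasia, the disease caused by loss of ATM. Purkinje cells also form parasagittal stripes. Zebrin-positive cells carry aldolase C (zebrin II, the product of *Aldoc*), phospholipase C beta 3 (*Plcb3*) and the glutamate transporter EAAT4 (*Slc1a6*), while zebrin-negative cells carry phospholipase C beta 4 (*Plcb4*). The study asked how loss of ATM affects the cerebellum and in particular aldolase C-positive Purkinje cells, and the comparison of genotypes bears on whether the RNAs of these cells differ in bulk tissue. In such tissue, fewer Purkinje cells and less RNA per cell cannot be told apart.

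Libraries held 65967130 to 88030300 counts. Levels are given as CPM, counts scaled to a common library total, with TMM factors of 0.957 to 1.042. *Atm* itself was at 67.6, 80.0, 79.4 and 59.0 CPM in *Atm*-WT mice 2M, 7M, 13M and 32M and at 51.1, 44.3, 41.1 and 44.9 CPM in *Atm*-KO mice 1M, 7F, 11M and 12M. It was lower in every *Atm*-KO mouse (log2 fold change -0.66, edgeR adjusted p = 0.0775, and 2.01e-05 in DESeq2), and counts over the whole gene do not show which exons were removed. Across all genes tested, 4 passed an adjusted p of 0.05 in edgeR (0.0178% of 22423). The libraries also differed in RNAs kept in the nucleus, of which 7 of 8 listed were higher in *Atm*-KO at an unadjusted p under 0.05 (beside 11.7% of all genes), 1 (*Neat1*) at an adjusted p of 0.05 in edgeR and 6 in DESeq2 (beside 5.05% of all genes higher there), with summed levels of 4860 to 9663 CPM in *Atm*-WT and 10204 to 15864 CPM in *Atm*-KO. Library *Atm*-KO 12M stood apart in genes of cerebellar nuclei and brainstem, with *Slc17a6* at 4.32 CPM (73.6 to 116 in the remaining 7), *Nefl* at 138 CPM (249 to 337), *Nefm* at 45.8 CPM (77.9 to 117) and *Spp1* at 8.48 CPM (17.3 to 28.4), while *Slc6a5*, the fifth tested, was at 55.2 CPM (49.1 to 64.8). It was also the lowest library for all 8 oligodendrocyte genes listed, for example *Mobp* at 127 CPM (284 to 471). Without it the median log2 fold change of the 10 Purkinje cell genes was -0.15 instead of -0.12.

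To show what lies in front of these genes, the 250 bases before the canonical start of each were read from GRCm39 by the GENCODE vM39 annotation and searched on both strands for AGGTCA (the half-site of ROR nuclear receptors, among them RORα, a Purkinje cell regulator) and for ACGTG and GCGTG (both forms of the core letters of hypoxia response elements, searched because the study examined HIF1α at *Aldoc*). Capitals mark the matches, in either orientation, and sequences run 5′ to 3′ on the strand of the gene. AGGTCA or its reverse complement TGACCT was found in front of *Pcp2*, *Pcp4* and *Plcb3*, in 13.1% of 21770 promoters of protein-coding genes. Because other transcripts of *Pcp2* and *Plcb3* start further upstream, and exons of such transcripts cover 73 of the 250 bases for *Pcp2* and all 250 for *Plcb3* (91 of them also in exons of other genes), only the 30 bases around the match are shown for these 2 genes. Exons of other transcripts of the same gene also cover 29 bases of the window of *Calb1*, 22 of *Pvalb*, 57 of *Rgs8* and 175 of *Aldoc*.
*Pcp2*, chr8:3675050-3675079, minus strand: ttgggggagtcaggggcAGGTCAgggaagg
*Plcb3*, chr19:6947411-6947440, minus strand: tcctcaaccggcTGACCTtggcatgtcttg
*Pcp4*, chr16:96268556-96268805, plus strand: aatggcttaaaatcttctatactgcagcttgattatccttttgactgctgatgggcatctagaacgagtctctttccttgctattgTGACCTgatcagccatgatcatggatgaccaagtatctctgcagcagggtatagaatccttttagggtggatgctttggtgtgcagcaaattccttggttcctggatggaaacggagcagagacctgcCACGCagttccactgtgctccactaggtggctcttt

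ACGTG, present in 17% of the same promoters, was found in front of *Slc1a6* and *Calb1*. GCGTG, present in 31.2%, was found in front of *Pcp4*, *Car8* and *Slc1a6*. The *Slc1a6* window holds both, and its ACGTG matches on the 2 strands overlap in the palindrome CACGTG. Neither these letters nor AGGTCA occur in the windows of *Aldoc*, *Pvalb*, *Ppp1r17* or *Rgs8*, which says nothing about binding elsewhere. The study reported HIF1α at a hypoxia response element of the *Aldoc* promoter in *Atm*-WT cerebellar cultures under prolonged insulin glargine. The position of that element relative to this window was not examined. The window of *Pvalb* is shown because *Pvalb* differed most clearly between genotypes.
*Slc1a6*, chr10:78615931-78616180, plus strand: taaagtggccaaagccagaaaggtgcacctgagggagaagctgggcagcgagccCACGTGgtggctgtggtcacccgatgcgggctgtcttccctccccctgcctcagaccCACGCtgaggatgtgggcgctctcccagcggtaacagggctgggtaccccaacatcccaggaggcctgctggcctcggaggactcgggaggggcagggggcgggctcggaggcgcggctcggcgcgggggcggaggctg
*Calb1*, chr4:15880934-15881183, plus strand: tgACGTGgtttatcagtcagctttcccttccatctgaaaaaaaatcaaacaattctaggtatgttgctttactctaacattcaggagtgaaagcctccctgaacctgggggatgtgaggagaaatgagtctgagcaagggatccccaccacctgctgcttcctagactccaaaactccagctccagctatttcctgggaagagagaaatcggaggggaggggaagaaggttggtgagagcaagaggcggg
*Pvalb*, chr15:78090603-78090852, minus strand: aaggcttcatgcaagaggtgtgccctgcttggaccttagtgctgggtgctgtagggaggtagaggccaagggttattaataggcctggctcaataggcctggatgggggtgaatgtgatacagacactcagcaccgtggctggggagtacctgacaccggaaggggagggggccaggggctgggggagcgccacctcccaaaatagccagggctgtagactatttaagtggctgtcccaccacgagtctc

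Compared per length in *Atm*-WT, as TPM, the length-scaled share of transcripts, over the exon length of the annotation, *Aldoc* was the most abundant of the 10 RNAs at 1632 ± 16.5 TPM (SD, n = 4). *Calb1* (950.2 ± 94.4 TPM) and *Rgs8* (884 ± 73.7 TPM) came next with overlapping ranges. *Car8* (629 ± 118 TPM) and *Pvalb* (602 ± 17.7 TPM) overlapped as well, and so did *Ppp1r17* (405 ± 39.0 TPM) and *Slc1a6* (396 ± 26.5 TPM). *Pcp2* stood alone at 235 ± 43.9 TPM, and *Plcb3* (48.5 ± 3.31 TPM) and *Pcp4* (38.8 ± 12.2 TPM) closed the order with overlapping ranges, 42.1-fold below *Aldoc* at the lower end. *Plcb4*, the zebrin-negative counterpart, was at 292 ± 22.0 TPM, above *Plcb3* in every mouse. *Aldoc* is also made by astrocytes and Bergmann glia, and the exon length counts the exons of every transcript, so these levels describe tissue and annotation and not the Purkinje cell alone. The canonical transcript holds 476 of the 1828 exon bases of *Pcp2* and 3900 of the 14907 of *Car8*, but 2193 of the 2355 of *Slc1a6*. The order, for example of *Pcp2* and *Slc1a6*, therefore depends on the length used. *Pcp2* and *Pcp4* also share 51.5% and 21.7% of their exon bases with other genes.

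**Figure D1:**
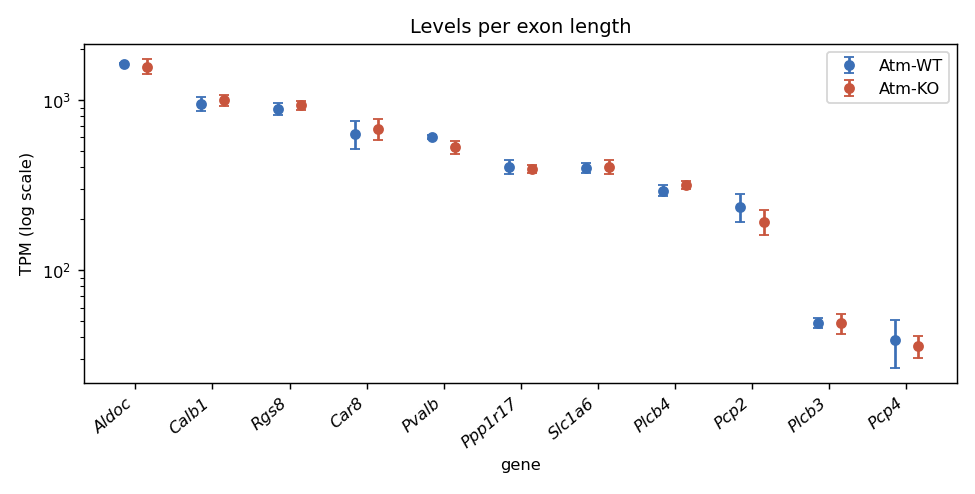
Mean level of each gene as TPM per exon length on a log axis, with error bars giving the SD over 4 mice, for *Atm*-WT and *Atm*-KO. The genes run from *Aldoc* at 1632 TPM to *Pcp4* at 38.8 TPM in *Atm*-WT.

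Of the 10 genes, 0 passed an adjusted p of 0.05 between genotypes in edgeR, 0 in limma voom and 1, *Pvalb*, in DESeq2. At that threshold DESeq2 called 2.44% of all genes lower. At an unadjusted p under 0.05, *Pvalb* and *Pcp2* were lower in *Atm*-KO, 2 of 10 where 8.48% of all genes tested were lower, and 0 of 10 were higher where 11.7% of all genes were. The log2 fold change was below 0 for 9 of the 10, with a median of -0.12, beside -0.018 over all genes tested and -0.063 over the 4548 protein-coding genes with a mean of at least 50 CPM, of which 71.0% were below 0. The signs depended on the scale: as TPM, the mean was lower in *Atm*-KO for 5 genes, higher for *Calb1*, *Rgs8*, *Car8* and *Slc1a6* (for example 997 against 950.2 TPM for *Calb1*) and alike for *Plcb3* (48.4 against 48.5 TPM), with a median log2 ratio of -0.03. With fewer than 10 mice, each gene was also examined with a two-sided exact permutation test of log2 CPM, for which 4 against 4 mice cannot give a p under 0.0286.

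**Figure D2:**
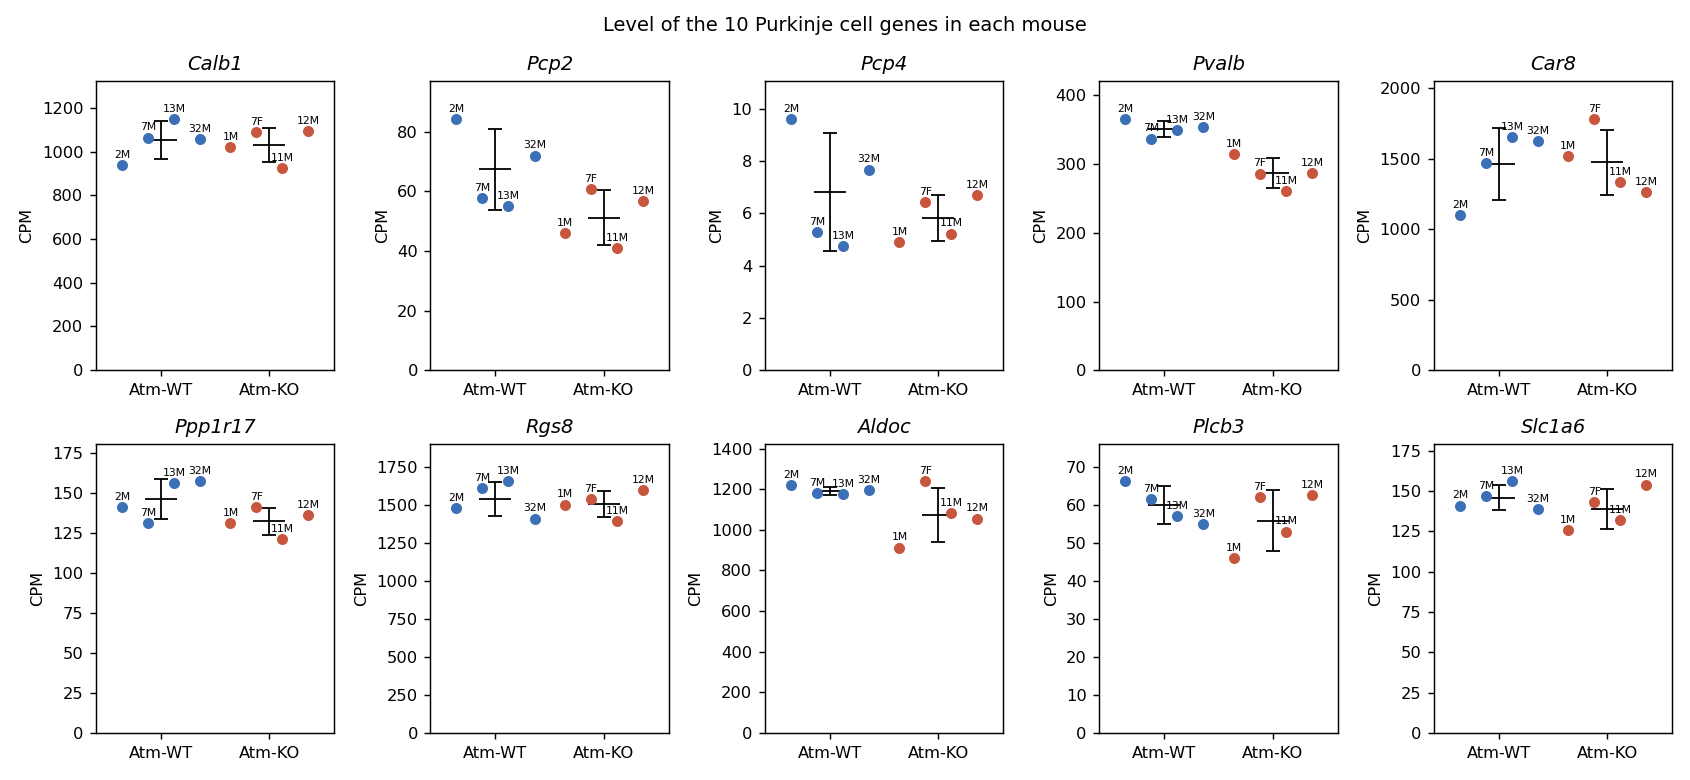
Level of each gene in CPM, with a linear axis from 0, in the 4 *Atm*-WT (blue) and 4 *Atm*-KO (red) mice named beside each point, with lines for the mean and bars for the SD. On this scale, with TMM factors, the genotypes are apart for *Pvalb*, at 337 to 366 against 260.3 to 315 CPM, and overlap for the other 9 genes, while without TMM factors *Pvalb* overlaps too.

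*Pvalb* encodes parvalbumin, a fast calcium buffer of Purkinje cells and of the interneurons of the molecular layer. Its levels were 366, 337, 349 and 354 CPM in *Atm*-WT mice 2M, 7M, 13M and 32M and 315, 286, 260.3 and 287 CPM in *Atm*-KO mice 1M, 7F, 11M and 12M. The highest *Atm*-KO value lay under the lowest *Atm*-WT value, a separation shared by 5.12% of all genes tested. It did not hold without TMM factors, where *Atm*-WT spanned 322 to 360.2 CPM and *Atm*-KO 264 to 328 CPM, or as TPM, where the ranges were 576 to 613 and 479 to 590.4. The difference was -0.29 on the log2 scale (95% interval -0.44 to -0.14, unadjusted p = 0.0013, edgeR adjusted p = 0.0942), a change of -18.3% with an interval of -26.4% to -9.25%, and the exact permutation p was 0.0286, the smallest possible, or 0.0571 without TMM factors. The adjusted p came to 0.00991 in DESeq2, where 2.44% of genes were lower at 0.05, and to 0.0465 in edgeR without the filter on low counts, where 0.479% were, and it was over 0.05 in the other 15 alternatives.

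*Calb1* encodes calbindin, the slower buffer by which Purkinje cells are usually stained. It was at 939, 1064, 1150.4 and 1057 CPM in the *Atm*-WT mice and at 1021, 1089, 926 and 1093 CPM in the *Atm*-KO mice. The ranges nearly coincided. The log2 fold change of -0.03 had an interval of -0.21 to 0.16 (edgeR adjusted p = 0.885), that is -13.8% to 11.6%, and its sign turned with library size alone as the scaling and when protein-coding genes alone were fitted (0.02 in both). The ratio of *Pvalb* to *Calb1*, which carries no scaling between libraries, averaged 0.336 ± 0.0378 in *Atm*-WT and 0.279 ± 0.0218 in *Atm*-KO (SD, n = 4 each), with 0.309 in *Atm*-KO 1M overlapping 0.303 in *Atm*-WT 13M.

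*Car8* encodes a carbonic anhydrase-related protein that binds the IP3 receptor and damps calcium release. Its levels were 1103, 1471, 1655 and 1626 CPM in *Atm*-WT and 1518, 1785, 1334 and 1263 CPM in *Atm*-KO. The lowest mouse, 2M, was an *Atm*-WT and the highest, 7F, an *Atm*-KO. Between genotypes it differed by 0.01 on the log2 scale (interval -0.30 to 0.32, edgeR adjusted p = 0.974), and it was -0.10 without *Atm*-WT 2M and -0.08 without *Atm*-KO 7F.

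*Pcp4* encodes a small protein that binds calmodulin. It was the scarcest of the 10, at 9.61, 5.27, 4.74 and 7.67 CPM in *Atm*-WT and at 4.89, 6.43, 5.22 and 6.68 CPM in *Atm*-KO, from 392 to 728 counts. *Atm*-WT mice 2M and 32M were above every *Atm*-KO mouse, while 13M was below them all. Its log2 fold change of -0.23 had the widest interval of the 10 (-0.71 to 0.24, edgeR adjusted p = 0.577), and it was -0.02 without *Atm*-WT 2M and -0.36 without *Atm*-WT 13M.

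*Pcp2* (L7) encodes a modulator of Gi/o proteins and is, within the cerebellum, among the RNAs most specific to Purkinje cells. Its levels were 84.4, 57.8, 55.2 and 72.0 CPM in *Atm*-WT and 46.1, 60.8, 41.1 and 56.7 CPM in *Atm*-KO. *Atm*-WT 2M and 32M were highest and *Atm*-KO 1M and 11M lowest, and the remaining mice overlapped between 55.2 and 60.8 CPM. Its log2 fold change was -0.40 (interval -0.72 to -0.07, unadjusted p = 0.022, edgeR adjusted p = 0.179, exact permutation p = 0.143), the largest of the 10. The unadjusted p was 0.0837 without *Atm*-WT 2M, 0.0625 without *Atm*-KO 1M and 0.0779 without *Atm*-KO 11M. Beside this, 941 of the 1828 exon bases of *Pcp2* lie opposite exons of *Pet100* and 243 of the 1121 of *Pcp4* lie in *Gm49948*, which had 0 counts in every library. How featureCounts treated strand and shared bases is not given in the sources used here, so the levels of both genes are uncertain, and for *Plcb3*, *Slc1a6* and *Rgs8* the bases shared with other genes came to at most 8.45% of their exons.

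*Atm*-WT 2M and 32M were also the highest mice for *Gng13*, which encodes a small G protein gamma subunit. Its 1023 exon bases are fewer than those of *Pcp4*, and its levels were 49.5, 32.6, 31.8 and 47.4 CPM in *Atm*-WT and 24.9, 35.2, 27.9 and 32 CPM in *Atm*-KO. Over the 3065 shortest protein-coding genes tested (165 to 3479 exon bases), the median deviation from the *Atm*-WT mean was 0.046 and 0.132 in these 2 mice, -0.092 and -0.073 in *Atm*-WT 7M and 13M, and between -0.17 and -0.061 in the *Atm*-KO mice, which the last 2 *Atm*-WT mice overlapped, and the median log2 fold change was -0.132, beside -0.011 over the 3065 longest. With the trend on length removed, *Pcp2* was at -0.45 (unadjusted p = 0.00961, edgeR adjusted p = 0.138).

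*Rgs8*, which encodes a GTPase activator that speeds the shut-off of G protein signals, was at 1478, 1610.3, 1654 and 1409 CPM in *Atm*-WT and at 1501, 1536, 1395 and 1597 CPM in *Atm*-KO. Its log2 fold change was -0.03 (interval -0.21 to 0.15, edgeR adjusted p = 0.874), and the sign turned to 0.02 with library size alone and to 0.01 with protein-coding genes alone. *Ppp1r17* (G-substrate), an inhibitor of protein phosphatases that is phosphorylated by cGMP-dependent kinase, was at 141, 131, 156 and 157 CPM in *Atm*-WT and at 131, 141, 121 and 136 CPM in *Atm*-KO. *Atm*-WT 13M and 32M were above every *Atm*-KO mouse and 11M was lowest. *Ppp1r17* differed by -0.15 on the log2 scale (interval -0.31 to 0.02, unadjusted p = 0.0734, edgeR adjusted p = 0.294), and over the 17 alternatives it ranged from -0.20 to -0.09. The unadjusted p was under 0.05 in 2 of these (0.0266 without *Atm*-WT 7M and 0.0252 with the length trend removed), and it was 0.27 without *Atm*-KO 11M, 0.248 without *Atm*-WT 13M and 0.231 with library size alone.

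The zebrin-positive genes showed no difference past the threshold. *Aldoc*, a glycolytic aldolase, was at 1219, 1180.1, 1177 and 1195 CPM in *Atm*-WT, the tightest group of all (1.62% of the mean as SD). The *Atm*-KO mice spread from 912 in 1M over 1055 in 12M and 1083 in 11M to 1238 in 7F, with an SD of 12.4% of the mean. So 3 of 4 *Atm*-KO mice lay under the *Atm*-WT range and 7F above it. The log2 fold change was -0.15 (interval -0.35 to 0.04, unadjusted p = 0.114, edgeR adjusted p = 0.357, exact permutation p = 0.143). Without *Atm*-KO 7F, the 1 mouse labelled F, it was -0.21 (unadjusted p = 0.0369, edgeR adjusted p = 0.199), and without 1M it was -0.08.

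*Plcb3*, which couples metabotropic glutamate receptors to IP3 in zebrin-positive cells, was at 66.3, 61.7, 57.1 and 55.0 CPM in *Atm*-WT and at 46.1, 62.1, 53.1 and 62.6 CPM in *Atm*-KO. Mice 1M and 11M were below all *Atm*-WT mice and the other 2 lay within their range (log2 fold change -0.10, interval -0.32 to 0.12, edgeR adjusted p = 0.605). It was -0.02 without *Atm*-KO 1M, -0.05 without *Atm*-WT 2M and -0.16 without *Atm*-KO 12M. *Slc1a6*, the Purkinje cell glutamate transporter, was at 141, 147, 156 and 139 CPM in *Atm*-WT and at 126, 143, 132 and 154 CPM in *Atm*-KO. Again 1M and 11M were below the *Atm*-WT range and 7F and 12M within it (-0.07, interval -0.23 to 0.09, edgeR adjusted p = 0.622), with -0.02 without *Atm*-WT 13M and -0.13 without *Atm*-KO 12M.

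*Plcb4*, at 452, 488, 429 and 403 CPM in *Atm*-WT and 415, 478, 425 and 467 CPM in *Atm*-KO, had a log2 fold change of 0.01 (interval -0.16 to 0.18). Set against *Plcb4* in the same mouse, *Aldoc* averaged 2.71 ± 0.226 in *Atm*-WT and 2.40 ± 0.199 in *Atm*-KO (SD, n = 4 each). The ratio of *Plcb3* to *Plcb4* was 0.136 ± 0.00844 and 0.125 ± 0.0100, and that of *Slc1a6* was 0.331 ± 0.0299 and 0.311 ± 0.0138. All 3 mean ratios were lower in *Atm*-KO and all 3 overlapped between genotypes. The 3 ratios share *Plcb4* as denominator. Of the 3 zebrin-negative pattern genes tested, 2 had a log2 fold change below 0, *Ebf2* at -0.19 and *Nefh* at -0.32. So *Plcb4* does not stand for that list. The ratio of *Aldoc* to *Slc1a3*, the glutamate transporter of Bergmann glia and astrocytes, which also make *Aldoc*, averaged 0.897 ± 0.0909 in *Atm*-WT and 0.851 ± 0.0949 in *Atm*-KO.

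**Figure D3:**
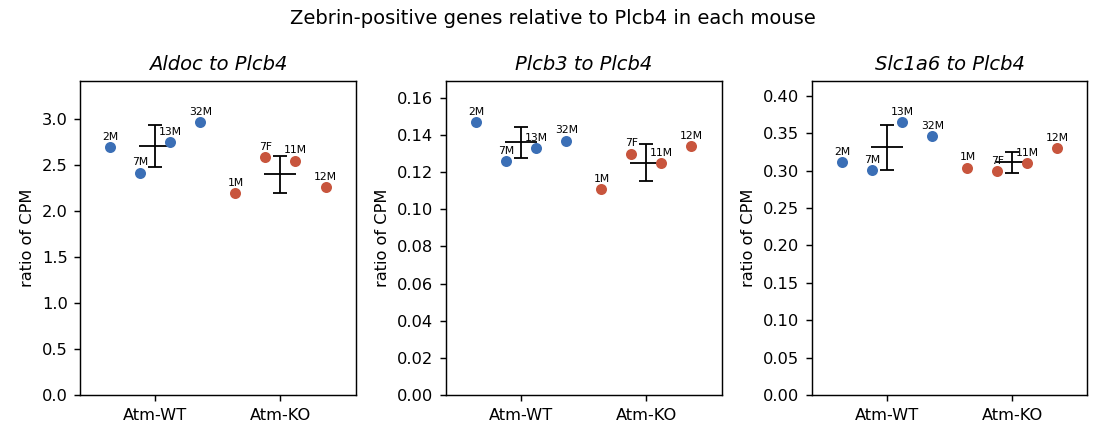
Ratio of the CPM of *Aldoc*, *Plcb3* and *Slc1a6* to that of *Plcb4* in each mouse, with a linear axis from 0, lines for the mean and bars for the SD over 4 mice. The genotypes overlap in each panel, with means of 2.71 and 2.40 for *Aldoc*.

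The glial part of the *Aldoc* level was not separated. Of 10 astrocyte and Bergmann glia genes, all 10 had a log2 fold change below 0, beside 71.0% of protein-coding genes with a mean of at least 50 CPM. Of the 10, 4 (*Gdf10*, *S100b*, *Aldh1l1* and *Gja1*) were lower at an unadjusted p under 0.05, beside 8.48% of all genes tested. *Aldh1l1* and *Gdf10* passed an adjusted p of 0.05 in DESeq2, where 2.44% of all genes were lower at that threshold. Summed levels of the 10 genes were 5425 to 6203 CPM in *Atm*-WT and 4816 to 5615 CPM in *Atm*-KO. *Gdf10*, a marker of Bergmann glia, was at 90.6 to 108 CPM in *Atm*-WT and 71.2 to 87.6 CPM in *Atm*-KO (-0.36, unadjusted p = 0.00145, edgeR adjusted p = 0.0948, and 0.0135 in DESeq2). *Slc1a3* was at 1187 to 1435 and 1152 to 1390.3 CPM (-0.09, edgeR adjusted p = 0.622). It was at -0.04 without *Atm*-WT 13M or *Atm*-KO 1M and at -0.14 without *Atm*-WT 32M or *Atm*-KO 12M. For *Pvalb*, the 6 genes of molecular layer interneurons were summed at 196 to 206 and 169 to 206 CPM, with 0 of 6 past an unadjusted p of 0.05. Their part in the results for *Aldoc* and *Pvalb* was not tested.

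Among 24 other Purkinje cell genes, 22 had a log2 fold change below 0 (median -0.11), beside 63.8% of protein-coding genes tested. At an adjusted p of 0.05, 0 passed in edgeR and limma voom. In DESeq2, 1 was lower at that threshold, beside 2.44% of all genes. At an unadjusted p under 0.05, 3 were lower (beside 8.48% of all genes tested) and 0 higher (beside 11.7%). The 3 were *Slc32a1*, the vesicular GABA transporter shared by all inhibitory neurons, *Gng13* and *Homer3*, the scaffold of metabotropic glutamate receptors in Purkinje spines. *Slc32a1* was at 112 to 126 CPM in *Atm*-WT and 86.7 to 105 CPM in *Atm*-KO, without overlap as for 5.12% of all genes (-0.29, interval -0.45 to -0.12, edgeR adjusted p = 0.105, and 0.0274 in DESeq2). *Gng13* had a log2 fold change of -0.43 (edgeR adjusted p = 0.171) and *Homer3* of -0.16 (edgeR adjusted p = 0.222). The unadjusted p of *Gng13* was over 0.05 in 5 of 17 alternatives, without *Atm*-WT 2M (0.0721), *Atm*-WT 32M (0.0578), *Atm*-KO 1M (0.0619) or *Atm*-KO 11M (0.0545) and with a surrogate variable (0.0959). That of *Homer3* was under 0.05 in 6 of 17 alone, and it reached 0.134 with library size alone and 0.18 without *Atm*-KO 11M. *Inpp5a*, a phosphatase that removes IP3, was at -0.15 (edgeR adjusted p = 0.261).

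Of 8 other zebrin-positive pattern genes, 0 passed an unadjusted p of 0.05 in edgeR in either direction, or an adjusted p of 0.05 in DESeq2 or limma voom. Of the 8, 6 had a log2 fold change below 0, beside 63.8% of protein-coding genes tested, and the median was -0.12. The GABA-B receptor subunit gene *Gabbr2* was at -0.16, *Gpr176* at -0.25 and the calcium sensor gene *Ncs1* at -0.15. *Gpr176* was at -0.15 without *Atm*-WT 32M, -0.16 without *Atm*-KO 1M and -0.10 with a surrogate variable, and *Ncs1* was at -0.06 without *Atm*-KO 12M and 0.03 with a surrogate variable. *Gabbr2* was at -0.10 without *Atm*-KO 1M. In the other direction, *Gabbr2* was at -0.23 without *Atm*-KO 7F (edgeR unadjusted p = 0.0229). *Gpr176* was at -0.36 without *Atm*-WT 2M (edgeR unadjusted p = 0.0412), and *Ncs1* at -0.19 without *Atm*-KO 11M. *Gabbr2* and *Gpr176* each had an unadjusted p under 0.05 in 1 of 17 alternatives. *Tox2*, at -0.55 with an interval of -1.56 to 0.47, rested on 1.10 CPM in *Atm*-KO 12M while the remaining *Atm*-KO libraries held 5.82 to 9.21 CPM, and its value was -0.20 without that library and 0.31 with a surrogate variable. Of 3 zebrin-negative pattern genes, likewise 0 passed, with *Nefh* at -0.32, *Ebf2* at -0.19 and *Plcb4* at 0.01. *Nefh* was at 39.7 CPM in *Atm*-KO 12M against 58.2 to 73.3 CPM in the remaining *Atm*-KO mice, and its value was -0.16 without 12M and -0.03 with a surrogate variable. It was -0.41 without *Atm*-WT 13M (edgeR unadjusted p = 0.041), and that p was 0.0343 without the filter on low counts. *Ebf2* was at -0.12 without *Atm*-WT 7M, its highest mouse. The sign of *Plcb4* turned under 4 of 17 alternatives.

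**Figure D4:**
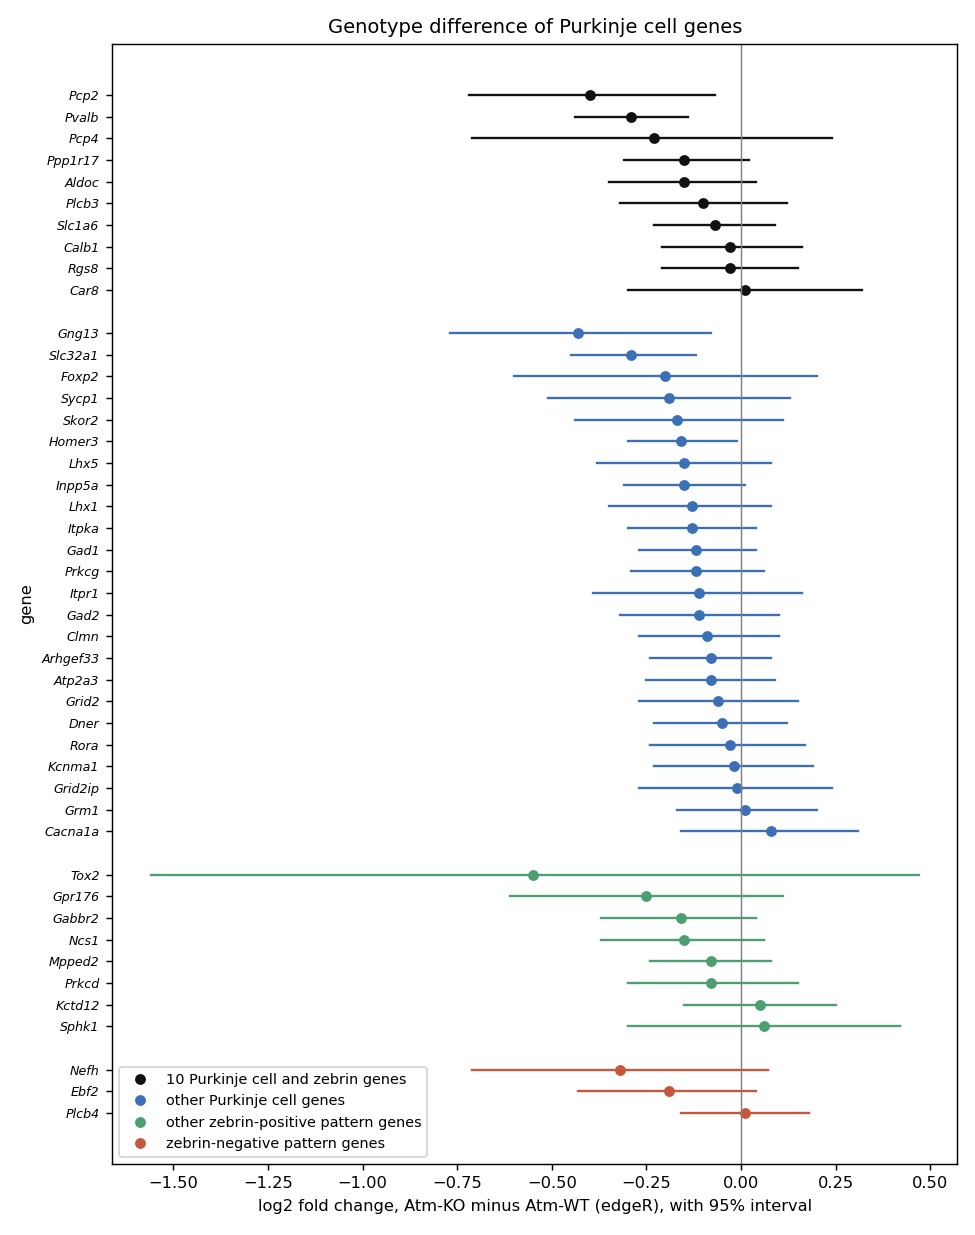
Log2 fold change of *Atm*-KO against *Atm*-WT with its 95% interval from edgeR, for the 10 Purkinje cell and zebrin genes, 24 other Purkinje cell genes, 8 other zebrin-positive and 3 zebrin-negative pattern genes. Most points lie a little below 0, and the intervals of *Pvalb*, *Pcp2*, *Slc32a1*, *Gng13* and *Homer3* leave out 0.

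By mouse, the difference was uneven. Relative to the *Atm*-WT mean, the median over the 10 genes was -0.18 on the log2 scale in both 1M and 11M, -0.01 in 7F and -0.04 in 12M, and between -0.01 and 0.04 in the *Atm*-WT mice. *Atm*-KO 11M was below the lowest *Atm*-WT mouse for 8 of the 10 genes and 1M for 6, while 12M was below for 2 and 7F for 1. The share of all genes tested that lay outside the *Atm*-WT range was not counted by library. Over the 3065 shortest protein-coding genes the median deviation was -0.119 in 1M, -0.099 in 11M, -0.061 in 7F and -0.17 in 12M. Over the 3065 longest it was -0.029, 0.014, 0.024 and -0.029 in the same order. Mouse 7F was above the highest *Atm*-WT mouse for *Aldoc* and *Car8*. Without 1M the median log2 fold change of the 10 genes was -0.06 and without 11M it was -0.08. The summed level of all 10 genes, to which *Rgs8*, *Car8*, *Aldoc* and *Calb1* contribute most, was 5547 to 6415 CPM in *Atm*-WT and 5351 to 6347 CPM in *Atm*-KO.

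**Figure D5:**
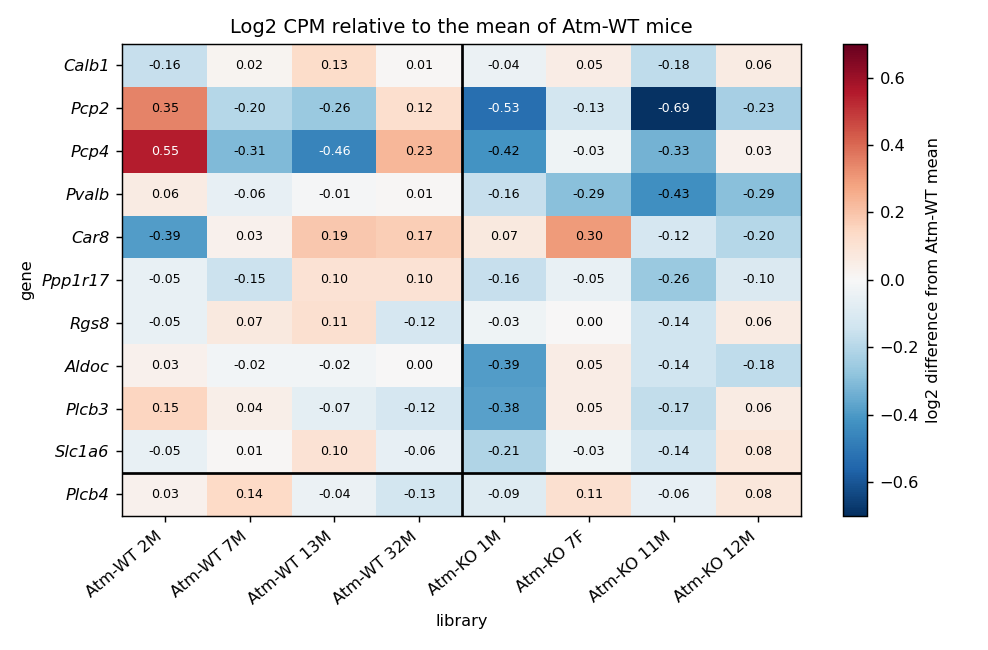
Log2 CPM of the 10 genes and *Plcb4* in each mouse relative to the mean of the *Atm*-WT mice, in colour and in numbers. *Atm*-KO 1M and 11M are below 0 for most genes (median -0.18 in both), and *Atm*-WT 2M stands out with 0.55 for *Pcp4* and 0.35 for *Pcp2*.

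The genes that followed *Calb1* and *Aldoc* most closely over the 8 libraries were sought among 15738 genes with a mean of at least 1 CPM, by the root mean square difference of centred log2 CPM. Nearest to *Calb1* were *Def8*, *Cep76*, *B3gnt5*, *Cisd2* and *Zfp563*, at 0.048 to 0.052. *Rgs8* ranked 43 and *Slc1a6* ranked 152 by that measure, while *Pcp2* ranked 12257 and *Pcp4* 13178. Nearest to *Aldoc* were *Cap2*, *Snx9*, *Eef1a2*, *Gnptab* and *Nalf1*, at 0.042 to 0.050, with *Plcb3* at rank 862 and *Slc1a6* at 1790. The measure favours genes with small differences between libraries, and the 8 libraries share the genotype difference.

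Of the other cell types of the tissue, 0 of 10 granule cell genes passed an unadjusted p of 0.05 (median log2 fold change 0.06), while 4 of 8 oligodendrocyte, 4 of 7 microglia, 3 of 6 endothelial and 3 of 5 choroid plexus genes were lower in *Atm*-KO at that p (beside 8.48% of all genes tested), 0 at an adjusted p of 0.05 in edgeR or limma voom. In DESeq2, 3 of the microglia and 2 of the endothelial genes were lower at an adjusted p of 0.05, beside 2.44% of all genes. From the other lists named here 0 genes passed. Of 5 tested genes of cerebellar nuclei and brainstem, 0 passed an unadjusted p of 0.05, in a comparison that includes *Atm*-KO 12M. Every listed gene that was tested, the 10 Purkinje cell genes included, had counts in all 8 libraries.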

How the data were processed

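RNA of frozen cerebellum from 4 *Atm*-WT and 4 *Atm*-KO mice had been sequenced on an Illumina HiSeq platform. Per the labels, the authors checked reads with FastQC 0.11.9, aligned them with STAR to GRCm39 and deposited raw counts per gene from featureCounts, without normalization. Strand and pair settings are not given in the sources used here. Of counts from 1 to 20, 71.6% were even, so it is not settled whether a count is a read or a fragment. Identifiers were matched without version to GENCODE vM39 (56017 of 56691).

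The 10 genes and all lists were chosen with earlier results of these data known. Named beside them were *Atm*, *Plcb4*, *Slc1a3*, *Gdf10*, up to 4 genes of smallest p in each of 3 related lists, and the 5 genes nearest to *Calb1* and to *Aldoc*. A further gene of these lists was left out and is not reported here. Members of other lists named singly were named after their values were seen.

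Counts were fitted with edgeR 4.0.16 in R 4.3.3 (filterByExpr, TMM, glmQLFit, glmQLFTest, no covariate), with Benjamini-Hochberg adjustment over 22423 genes. The procedure was also run on simulated counts, with the same dispersion for all genes and known changes larger than any of the 10 genes showed. That run does not bear on differences as small as theirs. CPM used TMM factors, and log2 CPM a prior count of 2. Depth of 65967130 to 88030300 counts gave at least 392 counts for every one of the 10 genes in every library. The alternatives were DESeq2 1.42.0, limma 3.58.1 (voom), a surrogate variable from sva 3.50.0, other scalings and filters, leaving out each library and, added after the data were seen, a correction for exon length.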

Additional observations from a re-analysis of the deposited data

Results flagged for a closer look

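In 94 groups of 4 values examined, 3 held a mouse far from the other 3 of its genotype by Dixon's ratio, where chance gives about 4.7. *Ebf2*, a zebrin-negative pattern gene, was at 18.4 CPM in *Atm*-WT 7M against 15 to 15.4 CPM in the other *Atm*-WT mice. The ratio of *Plcb3* to *Calb1* was 0.0451 in *Atm*-KO 1M against 0.0571 to 0.0573 in the other *Atm*-KO mice. The library of *Atm*-KO 12M held 65967130 counts against 76598492 to 78431478 in the other *Atm*-KO libraries.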

How the results depend on the processing

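Of the 10 genes, *Pcp2*, *Pcp4*, *Pvalb*, *Ppp1r17*, *Aldoc*, *Plcb3* and *Slc1a6* kept a log2 fold change below 0 under all 17 alternatives. *Calb1* turned to 0.02 with library size alone and with protein-coding genes alone, and to 0.03 without *Atm*-WT 13M or *Atm*-KO 11M (-0.08 to 0.03 over the libraries left out). *Rgs8* turned to 0.02, 0.01, 0.02 and 0.02 under the same 4 (-0.07 to 0.02 over the libraries left out). *Car8* turned to -0.10 without *Atm*-WT 2M, -0.00326 without *Atm*-KO 1M, -0.08 without *Atm*-KO 7F and -0.01 with the length trend removed (-0.10 to 0.09 over the libraries left out). *Plcb4* turned to -0.04 with a surrogate variable, -0.03 without *Atm*-WT 32M, -0.00490 without *Atm*-KO 7F and -0.01 without *Atm*-KO 12M (-0.03 to 0.06 over the libraries left out). With a surrogate variable *Ncs1* was at 0.03 and *Tox2* at 0.31. Without TMM factors the exact permutation p was 0.714 for *Calb1* and 0.743 for *Rgs8*, with the sign turned, and 0.0571 for *Pvalb*.

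Genes past an adjusted p of 0.05 numbered 4 in edgeR, 591 without a filter, 2 with protein-coding genes alone and 1552 in DESeq2, and 1 to 27 when a library was left out. At an unadjusted p under 0.05 there were 4524, with 2577 for protein-coding genes alone and 2271 with a surrogate variable, and 3086 to 4926 when a library was left out. Of the 10 genes, 1 to 3 were lower and 0 higher at that p when a library was left out, and of the 24 other Purkinje cell genes 1 to 6 were lower, with 5 under a surrogate variable. The median log2 fold change of the 10 genes, -0.12, was -0.08 with library size alone, -0.10 with at least 10 counts in every library, -0.08 with protein-coding genes alone and -0.15 to -0.06 when a library was left out. The causes were not tested. No paired analysis was possible because the labels tie no *Atm*-WT mouse to an *Atm*-KO mouse. *Pcp4*, with 392 to 728 counts, is the least precise of the 10.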
